A study of Chlamydomonas reinhardtii with 31 samples.

Results

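A group of 23 genes of the green alga Chlamydomonas reinhardtii, out of 17301 gene models measured, was defined by a brief high level soon after the cells lost their nitrogen supply. The genes were chosen by their own values in the first of 2 library sets. The strains of that set were CC-4349, coded cw in the sample titles, and the starchless mutant sta6. In both, FPKM + 1 at 2 h was at least 4 times that at 0 h. The mean of 24 and 48 h was at least 3 times below the 2 h value in both strains, and the 2 h level was at least 5 FPKM in both. FPKM scales the reads of a gene by its length and by the size of the library, so levels of different genes can be set side by side. The rule alone found 73 genes in CC-4349 and 61 in sta6. The 23 genes found in both make up 31.5% of the CC-4349 list and 37.7% of the sta6 list.

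The study followed RNA by sequencing in cultures that were grown on acetate medium (TAP) in the light, washed, and resuspended in the same medium lacking ammonium chloride. The first set held CC-4349 and sta6 (CC-4348) at 0, 0.5, 2, 4, 8, 12, 24 and 48 h, with 16 samples in all. The second set held 15 samples, taken at 0.5, 4 and 48 h from CC-4349, from sta6 and from STA6-C2, STA6-C4 and also STA6-C6, which are separate lines of sta6 with the STA6 gene put back. Each strain, time and set had 1 sample, so strains stood in as replicates of a time and times as replicates of a strain. Every sample, 0 h included, is labelled as minus nitrogen, and none of the samples used here was washed and returned to medium with ammonium. The wash and the loss of nitrogen therefore cannot be told apart.

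Chlamydomonas deprived of nitrogen stops dividing, can turn into mating-competent gametes, breaks down part of its photosynthetic apparatus and ribosomes, and stores carbon as starch and oil. STA6 encodes the small subunit of ADP-glucose pyrophosphorylase, which makes the precursor of starch, so sta6 cells make almost no starch. Genes that respond early to a lost nutrient often encode regulators, transporters and stress proteins, and their transcripts can decline again while the later programme is still under way. Neither the deposited table nor the reference table pairs the 23 identifiers with a gene name or product, so no role is given to any of them, and identifiers are written without their transcript suffix.

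One library stood apart in a way that touches these genes. Across all 17301 genes, on log2(FPKM + 1), the first-set sta6 library labelled 0.5 h was closer to the sta6 0 h library (Pearson's r = 0.939) than to the sta6 2 h library (r = 0.854). In the 6 other libraries labelled 0.5 h the order was the reverse, with r between 0.824 and 0.880 for 0 h and between 0.875 and 0.960 for 2 h of CC-4349 or sta6. A further mismatch concerned the second-set libraries labelled CC-4349. At each of the 3 shared times, first-set CC-4349 had its lowest r with these libraries (0.886, 0.897 and 0.906) and a higher one with each of the 4 other second-set strains. First-set sta6 had its highest r with second-set sta6 at all 3 times. Results that rest on the first-set sta6 0.5 h library or on the second-set CC-4349 libraries are therefore given with and without them where the design allows, which leaves out the contrast of sta6 with CC-4349 in the second set.

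At 0 h the median of the genes was close to that of all genes in CC-4349 (3.91 against 4.03 FPKM). It was below that of all genes in sta6 (2.21 against 3.80), and at 2 h it was far above in both strains. In CC-4349 their median level was 3.91 FPKM at 0 h, 58.3 at 0.5 h, 94.3 at 2 h, 38.1 at 4 h, 22.5 at 8 h, 19.3 at 12 h, 18.6 at 24 h and 16.3 at 48 h. In first-set sta6 the medians were 2.21, 16.9, 113, 56.1, 30.4, 27.2, 19.0 and 15.3 FPKM at the same times. The median over all genes stayed between 3.80 and 7.60 FPKM in all 31 samples. The genes together took between 0.0493% and 0.633% of a library's FPKM sum. The 2 h value was a median 10.5 times the 0 h value in CC-4349 (range 4.69 to 96.6) and 13.2 times in sta6 (5.24 to 168), on FPKM + 1. These ratios chose the genes and are given as description only.

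**Figure D1:**
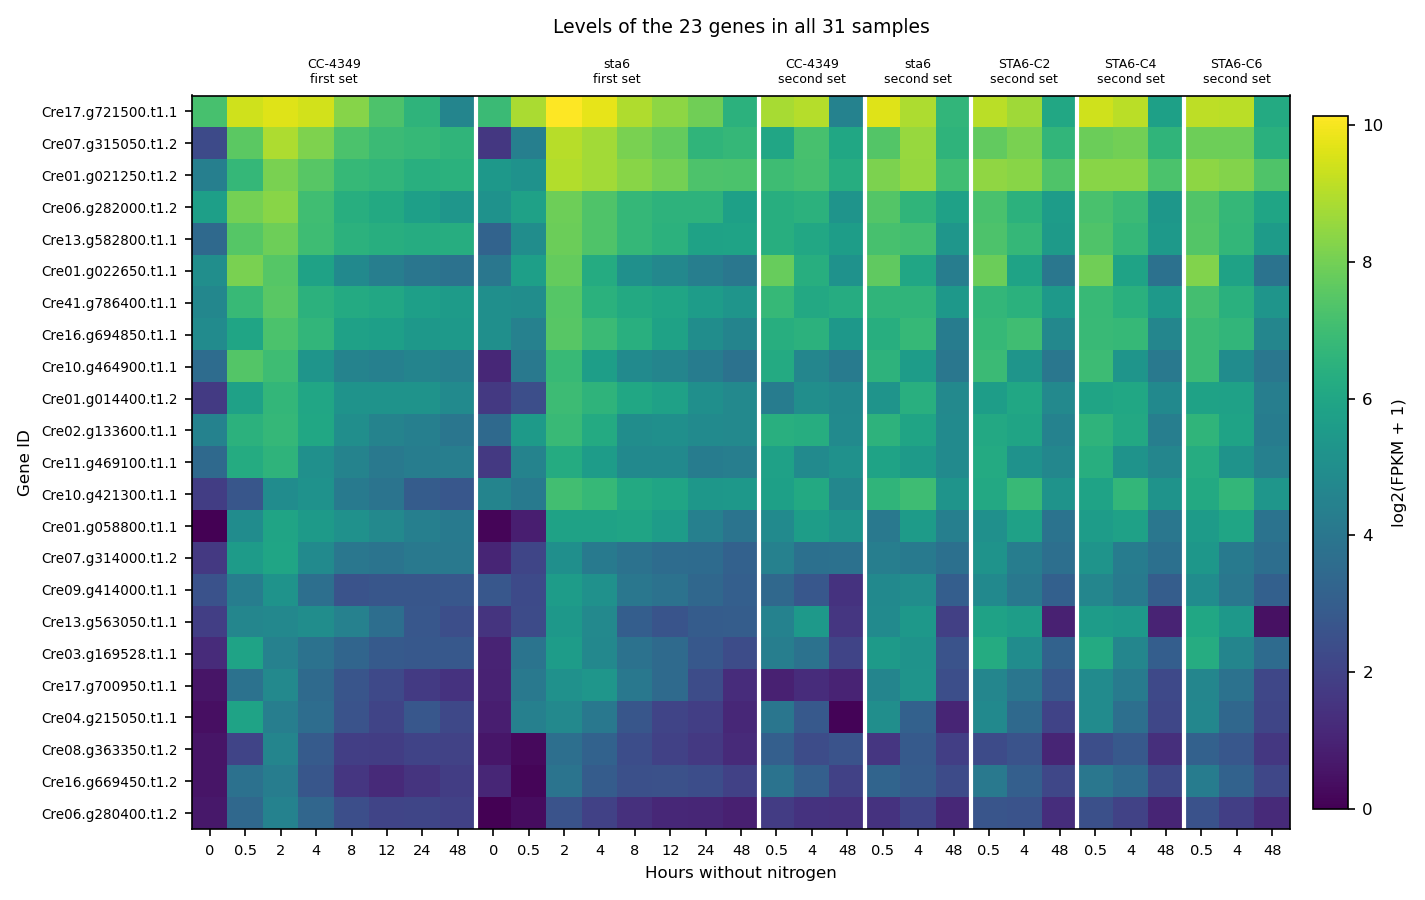
Level of each of the 23 genes (rows, ordered by their 2 h level) in all 31 samples (columns, hours without nitrogen within each strain and library set); colour is log2(FPKM + 1). The first-set columns are dark at 0 h, brightest near 2 h and darker again by 24 and 48 h, and the sta6 0.5 h column of the first set is darker than the other 0.5 h columns.

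The gene with the highest level at 2 h was Cre17.g721500. Its FPKM in CC-4349 was 146, 679.7, 793, 698, 315, 158, 95.7 and 23.7 at 0, 0.5, 2, 4, 8, 12, 24 and 48 h. In first-set sta6 it was 120.3, 466, 1124, 860.3, 487, 342, 244 and 89.4. Both strains were still high at 4 h, and both ended below their starting level at 48 h.

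The second highest, Cre07.g315050, started almost silent and did not return to that state. Its FPKM in CC-4349 was 3.91, 192, 474, 292, 154, 118, 109 and 97.2 over the same times. In sta6 it was 2.10, 20, 522, 425, 271, 213, 99.1 and 108. Even at 48 h both strains were many times above 0 h, and this gene had the largest ratio of 2 h to 0 h in both (96.6 and 168 on FPKM + 1). Cre01.g021250 behaved similarly from a higher start, with 19.6 FPKM at 0 h, 273 at 2 h and 87.1 at 48 h in CC-4349 and 41.8, 500.2 and 154 in sta6.

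An earlier and sharper course was shown by Cre01.g022650. In CC-4349 it had 31.04 FPKM at 0 h, 271 at 0.5 h, 175 at 2 h, 56.0 at 4 h, 27.2 at 8 h, 19.3 at 12 h, 14.9 at 24 h and 13.0 at 48 h. In sta6 the values were 15.01, 52.2, 210.3, 74.5, 32.9, 25.6, 19.0 and 15.3. By 8 h CC-4349 was already below its 0 h level, and sta6 was close to its own by 48 h.

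Several of the genes were barely detected at the start. Both strains were below 1 FPKM at 0 h for 5 genes, Cre01.g058800, Cre04.g215050, Cre06.g280400, Cre08.g363350 and Cre17.g700950. Cre01.g058800 was listed at 0 in CC-4349 and at 0.115 FPKM in sta6 at 0 h, and at 59.7 and 55.8 FPKM at 2 h. Cre17.g700950 stood at 0.489 FPKM at 0 h and 26.2 at 2 h in CC-4349, and at 0.959 and 33.6 in sta6. At the other end, Cre06.g280400 had 21.6 FPKM in CC-4349 but 5.11 in sta6 at 2 h, the lowest 2 h value of the group.

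Among the genes of higher level, Cre06.g282000 had 51.9 FPKM at 0 h, 261 at 0.5 h, 325 at 2 h, 131 at 4 h and 38.7 at 48 h in CC-4349. In sta6 it had 34.9, 55.0, 238, 159.7 and 53.5. Both strains came from a level well above the median gene, and CC-4349 ended below its own 0 h level. Cre13.g582800 started lower, with 10.1, 175, 237, 127 and 78.5 FPKM in CC-4349 and 8.38, 30.1, 232, 163 and 58.2 in sta6 at these times. The strains were nearly equal at 2 h, and both kept several times their 0 h level.

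Cre41.g786400 had 25.01, 113, 185, 90.5 and 46.8 FPKM at 0, 0.5, 2, 4 and 48 h in CC-4349 and 32.5, 30.1, 174, 88.2 and 38.4 in sta6. Cre16.g694850 had 28.4, 62.0, 151, 101 and 43.3 in CC-4349 and 32.4, 20.8, 178, 119 and 22.9 in sta6. For both genes the sta6 0.5 h library was below the sta6 0 h library, whereas CC-4349 had already moved up. Cre02.g133600 had 21.8, 89.8, 106, 65.1 and 14.7 FPKM in CC-4349 and 10.01, 45.6, 115, 71.7 and 26.3 in sta6, and it had the smallest 2 h ratio of the group in CC-4349.

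Lower starting levels marked Cre10.g464900, Cre01.g014400 and Cre11.g469100. Cre10.g464900 had 10.9, 171, 125, 38.1 and 20.4 FPKM in CC-4349 and 1.17, 15.9, 113, 49.7 and 13.0 in sta6 at 0, 0.5, 2, 4 and 48 h. For Cre01.g014400 the values were 2.29, 54.7, 104, 62.7 and 28.1 in CC-4349 and 2.22, 4.44, 122, 96.1 and 26.3 in sta6. The strains shared the start, the 2 h level and the end of this gene and stood far apart at 0.5 h. Cre11.g469100 had 10.1, 74.3, 94.3, 32.7 and 19.5 FPKM in CC-4349 and 2.21, 22.1, 73.8, 47.1 and 19.4 in sta6.

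Between the strains at 2 h, 16 of the 23 genes were within a factor of 1.5 on FPKM + 1. The widest gap was that of Cre10.g421300, with 2.62, 5.48, 29.6, 34.6 and 5.75 FPKM in CC-4349 and 22.9, 16.9, 135, 110.5 and 41.0 in sta6 at 0, 0.5, 2, 4 and 48 h. The strains kept this order at all 8 times, 0 h included. On the opposite side, Cre06.g280400 was lower in sta6 at all 8 times, with 0.569, 9.68, 21.6, 9.03 and 2.84 FPKM in CC-4349 and 0.00889, 0.277, 5.11, 2.89 and 0.877 in sta6.

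A last set of genes stayed at or below 60.8 FPKM in the first set. Cre07.g314000 had 2.18, 46.7, 60.8, 27.6 and 16.3 FPKM in CC-4349 and 1.06, 3.36, 32.5, 17.2 and 7.89 in sta6 at 0, 0.5, 2, 4 and 48 h. Cre03.g169528 had 1.35, 58.3, 20.9, 13.2 and 6.00 in CC-4349 and 1.01, 14.1, 47.7, 25.7 and 4.09 in sta6. In CC-4349 the second of these was already well past its highest level by 2 h. Cre04.g215050 was alike, with 0.345, 58.2, 19.0, 11.4 and 3.62 FPKM in CC-4349 and 0.786, 20.4, 26.1, 15.7 and 1.21 in sta6. Cre16.g669450 had 0.496, 12.8, 18.5, 5.49 and 2.58 in CC-4349 and 1.11, 0.103, 13.9, 6.66 and 2.85 in sta6, and Cre08.g363350 had 0.481, 3.24, 23.4, 6.56 and 2.99 in CC-4349 and 0.523, 0.179, 11.9, 7.99 and 1.34 in sta6. For this pair too the sta6 0.5 h library was below 0 h.

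The highest first-set value fell at 2 h in both strains for 15 of the 23 genes. In CC-4349 17 genes were highest at 2 h. Another 4 were highest at 0.5 h (Cre01.g022650, Cre10.g464900, Cre03.g169528 and Cre04.g215050) and 2 at 4 h (Cre10.g421300 and Cre13.g563050). In sta6 21 genes were highest at 2 h, with Cre17.g700950 highest at 4 h and Cre01.g058800 at 8 h. The 4 genes that were highest at 0.5 h in CC-4349 were highest at 2 h in sta6, whose 0.5 h library is the one that stood apart. At 0.5 h the genes were at a median 69.2% of their own 2 h level in CC-4349 (range 13.8% to 307%) and at 12.5% in sta6 (0.745% to 78.1%).

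**Figure D2:**
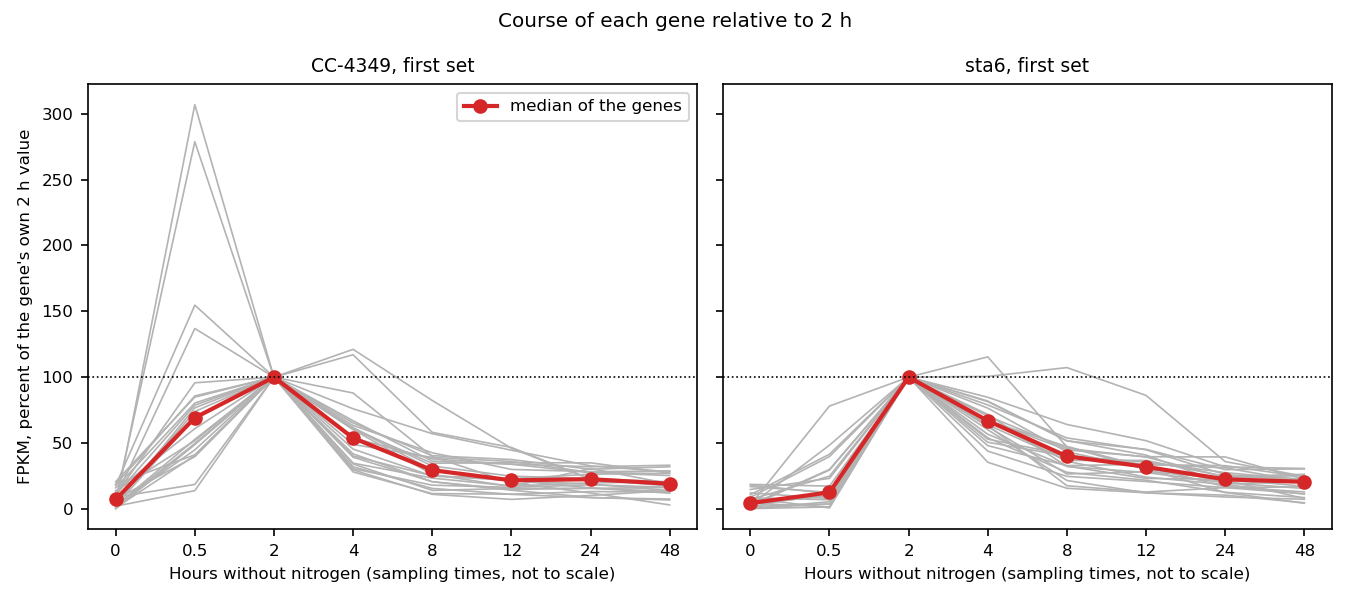
FPKM of each of the 23 genes in the first set as a percentage of its own 2 h value (grey lines) with the median over the genes (red), against sampling time in hours, for CC-4349 on the left and sta6 on the right. By construction all lines meet at 100% at 2 h; at 0.5 h the median is 69.2% in CC-4349 and 12.5% in sta6, and at 8 h it is 29.4% and 39.9%.

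After 2 h most of the drop of the median gene lay between 2 and 8 h. The median gene was at 53.8% of its 2 h level at 4 h, 29.4% at 8 h and 21.7% at 12 h in CC-4349. In sta6 it was at 66.9%, 39.9% and 31.9% at these times. The first sampled time at or below 50% of the 2 h level was 4 h for 11 genes, 8 h for 9 and 12 h for 3 in CC-4349. In sta6 it was 4 h for 3 genes, 8 h for 15, 12 h for 3 and 24 h for 2. No test was made between the strains in the first set, where each time has 1 sample a strain.

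Late in the course most of the genes were not below their 0 h level. The mean of 24 and 48 h was a median 2.03 times the 0 h value in CC-4349 and 2.18 times in sta6, on FPKM + 1. The median over all genes rose as well. It went from 4.03 FPKM at 0 h to 7.44 and 7.55 at 24 and 48 h in CC-4349, and from 3.80 to 5.75 and 5.79 in sta6. In CC-4349 19 of the 23 genes and in sta6 22 were still at or above their 0 h level. The share of all genes that were so was not computed. For 8 genes the late mean was at least 2 times the 0 h value in both strains, among them Cre07.g315050, Cre01.g014400, Cre13.g582800 and Cre01.g058800. Those below their 0 h level late in at least 1 strain were Cre17.g721500, Cre01.g022650, Cre02.g133600, Cre06.g282000 and Cre16.g694850. These ratios come from the 0, 24 and 48 h values that the rule used, and the drop from 2 h was fixed by that choice, so they describe the genes and test nothing.

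The limits of the rule fall within a continuous range of genes. On the rise, Cre02.g133600 (4.69 times in its lower strain) and Cre16.g694850 (5.18) lay just inside, and Cre08.g365900 (3.86) and Cre05.g237050 (3.81) just outside. On the fall, Cre06.g280400 and Cre13.g582800 (both 3.04 times) lay just inside, and Cre01.g012600 (2.97) and Cre01.g000650 (2.94) just outside. On the level, Cre06.g280400 at 5.11 FPKM was the nearest inside and Cre07.g323700 at 4.197 FPKM the only gene outside on that criterion alone. A further 531 genes met the rise and the level in both strains and missed only the fall, so the 23 genes are a small part of those that were up at 2 h. The 2 deposited runs of each first-set sample, averaged here, differed at 2 h by -0.16 to 0.21 on the log2 scale in CC-4349 and by -0.70 to 0.66 in sta6. Applied to 1 run at a time the rule found 16 and 26 genes, and 14 of the 23 were found in both.

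The second set was not used to choose the genes, and it asks whether the early and late parts of the course appear in other libraries. It has no 0 h and no 2 h sample, so the rise itself could not be followed there. At 0.5 h the median level of the 23 genes was 53.6 FPKM in CC-4349 and 58.2 in sta6, and the lines STA6-C2, STA6-C4 and STA6-C6 had 69.0, 72.9 and 75.4 FPKM. All 5 medians were above the 16.9 FPKM of the first-set sta6 0.5 h library, and the first-set CC-4349 value of 58.3 FPKM lay among them. At 4 h the medians were 42.0, 48.2, 54.3, 54.2 and 55.2 FPKM in the same order of strains, and at 48 h they were 24.8, 18.4, 15.1, 15.96 and 15.4 FPKM.

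Between 0.5 and 4 h the group split. With limma on log2(FPKM + 1) over 14982 genes, 10 of the 23 fell and 1 rose at an adjusted p under 0.05. Of all genes tested, 9.73% fell and 12.7% rose. The median change of the 23 was -0.40, against 0.03 over all genes tested. The 12 other genes did not pass.

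The largest fall between 0.5 and 4 h was that of Cre01.g022650. Its FPKM at 0.5 h was 219.7 in CC-4349 and 204 in sta6, then 233 (STA6-C2), 244 (STA6-C4) and 297 (STA6-C6), and at 4 h it was 81.6, 63.8, 58.0, 57.5 and 56.6. The 2 times did not overlap, and the fitted change was -1.90 ± 0.202 (SE, adjusted p = 0.00015 by limma, lower in 5 of 5 strains). In first-set CC-4349 this gene was likewise highest at 0.5 h.

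Cre10.g464900 had 73.1, 93.3, 119, 123 and 119 FPKM at 0.5 h and 24.1, 48.2, 38.3, 37.6 and 29.3 at 4 h in the same order of strains, again without overlap. Its fitted change was -1.56 ± 0.172 (adjusted p = 0.000179 by limma, 5 of 5 strains). Cre04.g215050 fell by 1.38 (SE 0.222, adjusted p = 0.00141) and Cre03.g169528 by 1.07 (SE 0.208, adjusted p = 0.00403), both in 5 of 5 strains. These 4 genes are the ones that were highest at 0.5 h in first-set CC-4349. Cre11.g469100 fell by 0.91 and Cre07.g314000 by 0.80, each in 5 of 5 strains. The falls of Cre16.g669450 (-0.74), Cre09.g414000 (-0.53), Cre06.g282000 (-0.46) and Cre02.g133600 (-0.43) were less stable. Each lost the call without STA6-C2, the last 3 also without STA6-C4 or STA6-C6, and the last 2 also without sta6. Without STA6-C2 6 genes fell. Over all genes the falls dropped too, to 597 of 14887 from 1457 of 14982 with all 5 strains. Without CC-4349 12 fell, against 16.9% of all genes there.

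The gene that rose between 0.5 and 4 h was Cre10.g421300. Its FPKM was 53.6, 97.6, 67.6, 57.9 and 71.0 at 0.5 h and 71.2, 126, 113, 103 and 103 at 4 h in CC-4349, sta6, STA6-C2, STA6-C4 and STA6-C6. Each strain was higher at 4 h, though the ranges overlapped between strains, and the fitted change was 0.57 ± 0.112 (adjusted p = 0.00429 by limma, 5 of 5 strains). In first-set CC-4349 it was also highest at 4 h. Cre01.g058800 was higher at 4 h in 5 of 5 strains too (0.71 ± 0.297), and did not pass (adjusted p = 0.11 by limma).

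**Figure D3:**
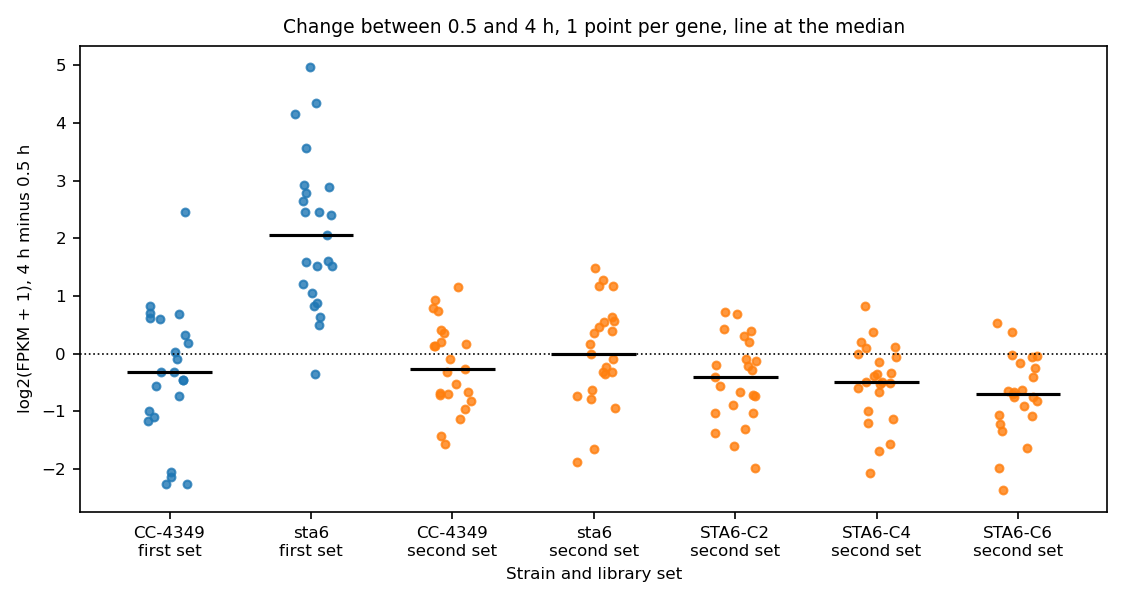
Change of each of the 23 genes between 0.5 and 4 h as a difference in log2(FPKM + 1) (vertical axis), by strain and library set (horizontal axis); each point is 1 gene and the line is the median. The first-set sta6 points sit apart, with 22 of 23 above 0 and a median of 2.06, whereas the other 6 medians lie between -0.69 and -0.01.

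The same interval in the first set gave opposite pictures in the 2 strains. In first-set CC-4349 14 of the 23 genes were lower at 4 h than at 0.5 h, with a median change of -0.31. First-set sta6 had 22 of 23 higher, with a median of 2.06. In second-set sta6, by contrast, 12 of 23 were lower and the median was -0.01. STA6-C2, STA6-C4 and STA6-C6 had 17, 18 and 21 genes lower. Second-set CC-4349, whose libraries matched first-set CC-4349 least, had 13 lower and a median of -0.26. Of all genes, 37.6% were lower at 4 h in first-set CC-4349, 35.5% in first-set sta6 and 45.1% in second-set sta6. In STA6-C2, STA6-C4 and STA6-C6 the shares of all genes were 48.4%, 42.6% and 46.3%, and in second-set CC-4349 the share was 37.4%. The 12 of 23 in second-set sta6 lay near the share over all genes. With the first-set sta6 0.5 h library left aside, no strain in either set had more than 11 of the 23 genes higher at 4 h than at 0.5 h.

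Between 4 and 48 h nearly the whole group declined in the second set. At an adjusted p under 0.05 by limma 21 of the 23 genes fell and 0 rose, while 28.0% of all genes tested fell and 23.8% rose. The median change of the 23 was -1.26, against -0.0016 over all genes tested. Of the 530 tested genes that met the rise and level parts of the rule and missed only the fall, 141 fell and 128 rose, with a median of -0.03. That difference between the lists was not tested. All 23 genes had a fitted change below 0, and all 23 had an unadjusted p under 0.05. Without the CC-4349 libraries 23 of 23 fell, against 33.2% of all genes tested there.

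The largest late fall was that of Cre13.g563050. At 4 h it had 42.0 FPKM in CC-4349 and 41.9 in sta6, then 48.7 (STA6-C2), 43.1 (STA6-C4) and 40.8 (STA6-C6), and at 48 h it had 2.04, 2.75, 0.912, 1.03 and 0.354. Every strain dropped to a few FPKM or less, with no overlap, and the fitted change was -4.29 ± 0.330 (adjusted p = 2.07e-06 by limma, 5 of 5 strains). At 48 h the first set had 4.39 FPKM in CC-4349 and 6.91 in sta6, above all 5 second-set values.

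Cre17.g721500 had 520.5, 475, 409, 536 and 548 FPKM at 4 h and 21.5, 100.03, 67.5, 52.8 and 73.2 at 48 h in the same order. The fall of -3.11 ± 0.258 (adjusted p = 3.55e-06 by limma, 5 of 5 strains) was again free of overlap, with CC-4349 lowest and sta6 highest at 48 h. Further large falls were those of Cre16.g694850 (-2.02 ± 0.193), Cre04.g215050 (-1.81 ± 0.222), Cre01.g022650 (-1.77 ± 0.202) and Cre03.g169528 (-1.75 ± 0.208), each in 5 of 5 strains. For Cre04.g215050, Cre01.g022650 and Cre03.g169528 this came on top of the fall between 0.5 and 4 h. Over the whole interval from 0.5 to 48 h they fell by 3.20, 3.67 and 2.82.

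Some genes moved less from 4 to 48 h. Cre11.g469100 (-0.45 ± 0.177, adjusted p = 0.0507 by limma) and Cre07.g314000 (-0.39 ± 0.169, adjusted p = 0.0755) did not pass. For Cre11.g469100 the levels at 4 h were 27.5, 45.5, 34.5, 36.3 and 35.7 FPKM in CC-4349, sta6, STA6-C2, STA6-C4 and STA6-C6 and at 48 h 33.6, 27.5, 24.9, 23.9 and 20.3. CC-4349 was the one strain in which it was higher at 48 h. The same held for Cre07.g314000, Cre08.g363350 and Cre41.g786400, while the other 19 genes were lower at 48 h in all 5 strains. Cre08.g363350 and Cre06.g280400, at 6.33 FPKM or less in all 5 strains at 4 h, passed (-0.98 ± 0.285 and -0.76 ± 0.205), and each lost the call without STA6-C2 (adjusted p = 0.0772 and 0.0577). Without STA6-C4, Cre08.g363350 also lost it (adjusted p = 0.0723).

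**Figure D4:**
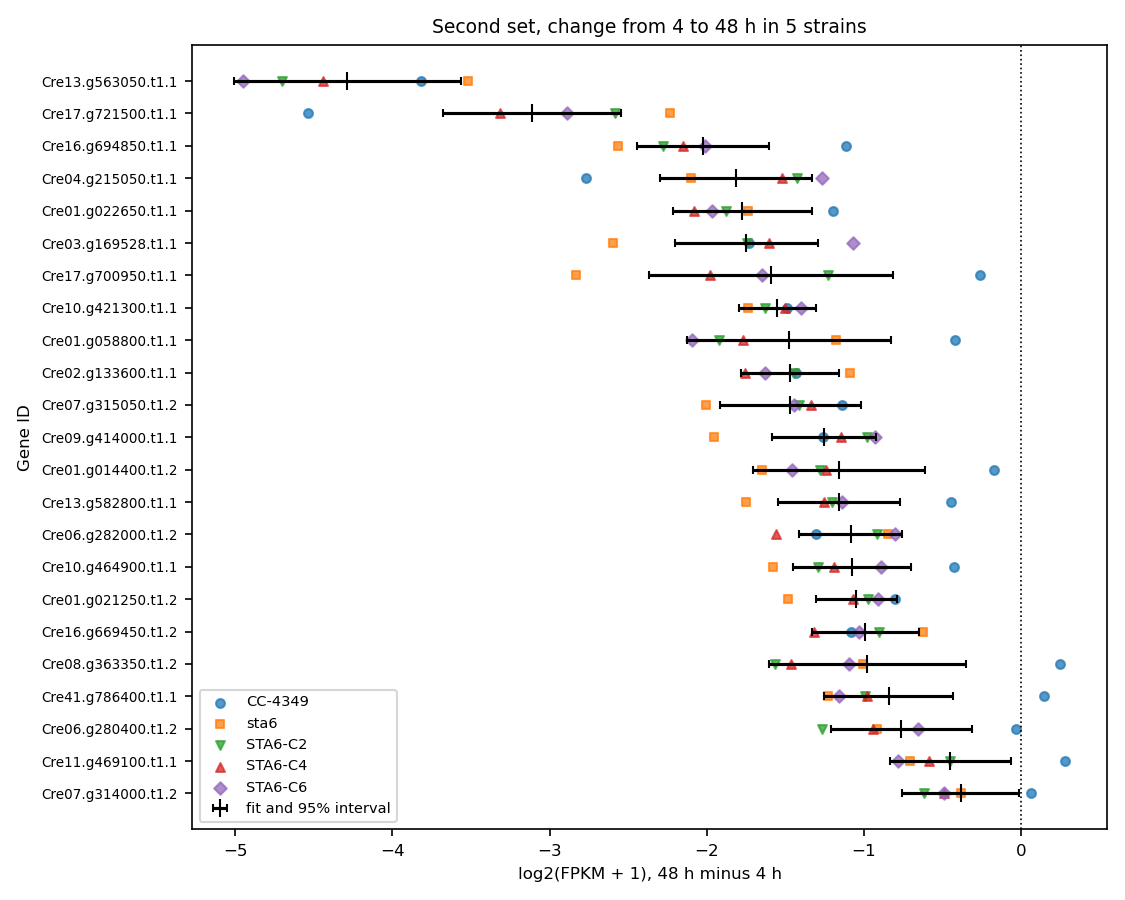
Change from 4 to 48 h in the second set as a difference in log2(FPKM + 1) (horizontal axis) for each of the 23 genes (rows); symbols are the 5 strains, and the vertical tick with its bar is the limma estimate with its 95% interval. Almost all symbols lie left of 0, with 4 genes in which CC-4349 alone lies to the right, and Cre13.g563050 and Cre17.g721500 lie furthest left.

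From 0.5 to 48 h all 23 genes fell at an adjusted p under 0.05 by limma, with a median of -1.61, while 32.2% of all genes tested fell. The smallest of these falls was that of Cre01.g014400 (-0.68 ± 0.250, adjusted p = 0.0334, lower in 4 of 5 strains). Its FPKM in CC-4349 was 17.98 at 0.5 h, 30.9 at 4 h and 27.3 at 48 h, whereas STA6-C4 had 60.3, 64.99 and 26.9. Cre01.g058800, the weakest by p (-0.77 ± 0.297, adjusted p = 0.0405), was lower in 3 of 5 strains. Both lost the call when any one of STA6-C2, STA6-C4 or STA6-C6 was left out, as did Cre08.g363350 (-0.81 ± 0.285). Without CC-4349 all 23 fell, against 38.1% of all genes.

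In the part of the first set that the rule did not use, the mean of 8 and 12 h was compared with 4 h in both strains. All 23 fitted changes were below 0, with a median of -0.88 against 0.05 over all 14776 genes tested. With 3 residual degrees of freedom limma called 0 of the 23 at an adjusted p under 0.05 (lowest adjusted p = 0.354), and 0% of all genes passed in either direction. At an unadjusted p under 0.05 there were 6 genes, Cre10.g421300 (-0.94 ± 0.209), Cre17.g700950 (-1.28 ± 0.339), Cre17.g721500 (-1.36 ± 0.361), Cre02.g133600 (-1.22 ± 0.327), Cre04.g215050 (-1.49 ± 0.421) and Cre13.g563050 (-1.42 ± 0.435). Without the sta6 0.5 h library, which enters this fit only through its estimate of the spread, 16 of the 23 passed as lower, against 1.39% of all genes tested. That alternative was chosen after seeing the data.

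Whether loss of STA6 altered the levels of these genes was asked with sta6 against the 3 strains carrying STA6 again, over the 3 second-set times. Fitted differences ran from -0.43 (Cre06.g280400) to 0.38 (Cre17.g700950), and 0 of the 23 passed, against 0.354% of all genes that were higher and 0.387% that were lower in sta6. At an unadjusted p under 0.05 there were 2 genes, Cre10.g421300 (0.28 ± 0.111, adjusted p = 0.307 by limma) and Cre16.g669450 (-0.34 ± 0.154, adjusted p = 0.367). The 95% interval of the difference lay between -1 and 1 on the log2 scale for 21 genes. For the other two, Cre17.g700950 and Cre01.g058800, it reached 1.14 and -1.01. Differences up to these bounds remain compatible with the data. The bounds hold for the mean over the 3 times, in which gaps of opposite sign can cancel. For Cre13.g563050 (fitted difference 0.03), sta6 had 28.2 FPKM at 0.5 h and the strains with STA6 a mean of 55.9. At 48 h the values of this gene were 2.75 and 0.765. Differences at single times were not tested. With the CC-4349 libraries left out of the fit 0 passed as well, and 6 had an unadjusted p under 0.05. For Cre17.g721500 the 4 h levels were 475 FPKM in sta6 and 498 ± 77.0 (SD, n = 3) in the strains with STA6, and at 48 h 100.03 and 64.5 ± 10.5.

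Against the second-set CC-4349 libraries, 8 of the 23 genes were higher in sta6 and 0 lower at an adjusted p under 0.05 by limma. Of all genes tested, 11.1% were higher and 15.6% lower. The 530 tested genes that met the rise and level and missed only the fall leaned the same way. Of these, 125 were higher and 40 lower, with a median of 0.18 against 0.38 for the 23. That difference between the lists was not tested. The contrast of sta6 with CC-4349 rests wholly on the libraries that matched first-set CC-4349 least, and it cannot be given without them. The fitted difference of Cre17.g700950 was the largest at 3.03 ± 0.430 (adjusted p = 0.000192). Its FPKM was 0.883, 1.42 and 1.02 at 0.5, 4 and 48 h in CC-4349, and 23.5, 37.0 and 4.35 in sta6. The 3 strains with STA6 had between 24.0 and 28.8 FPKM at 0.5 h. First-set CC-4349 had 13.0, 10.3 and 1.76 FPKM at the same times, so the near absence in the second set was not seen in the first.

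Cre09.g414000 followed, with FPKM values of 9.65, 5.65 and 1.77 in second-set CC-4349 against 26.9, 30.2 and 7.06 in sta6 (1.72 ± 0.180, adjusted p = 1.15e-05 by limma, higher at 3 of 3 times). First-set CC-4349 had 18.5, 12.2 and 5.77 FPKM. The differences were 1.12 ± 0.241 for Cre07.g315050, 1.09 ± 0.138 for Cre01.g021250 and 1.03 ± 0.251 for Cre03.g169528, each higher in sta6 at 3 of 3 times. Smaller differences passed for Cre10.g421300 (0.75 ± 0.136) and Cre06.g282000 (0.59 ± 0.191). For Cre17.g721500 (0.95 ± 0.310, adjusted p = 0.0364) the 48 h libraries decided the value, which was 0.34 without them (adjusted p = 0.236). Without the 0.5 h libraries Cre06.g282000 came to 0.35 (adjusted p = 0.335 by limma). Cre03.g169528 (0.95, adjusted p = 0.0584) and Cre17.g721500 (1.02, adjusted p = 0.165) also lost the call there. Without the 4 h libraries the call was lost by Cre07.g315050 (adjusted p = 0.0753) and Cre03.g169528 (adjusted p = 0.0548). The same held for Cre10.g421300 (adjusted p = 0.0545) and Cre06.g282000 (adjusted p = 0.0525). Leaving out a time gave 5 genes higher without 0.5 h, 4 without 4 h and 11 without 48 h. Over all genes the number higher moved as well, with 726 of 14669, 469 of 14662 and 3850 of 14464.

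**Figure D5:**
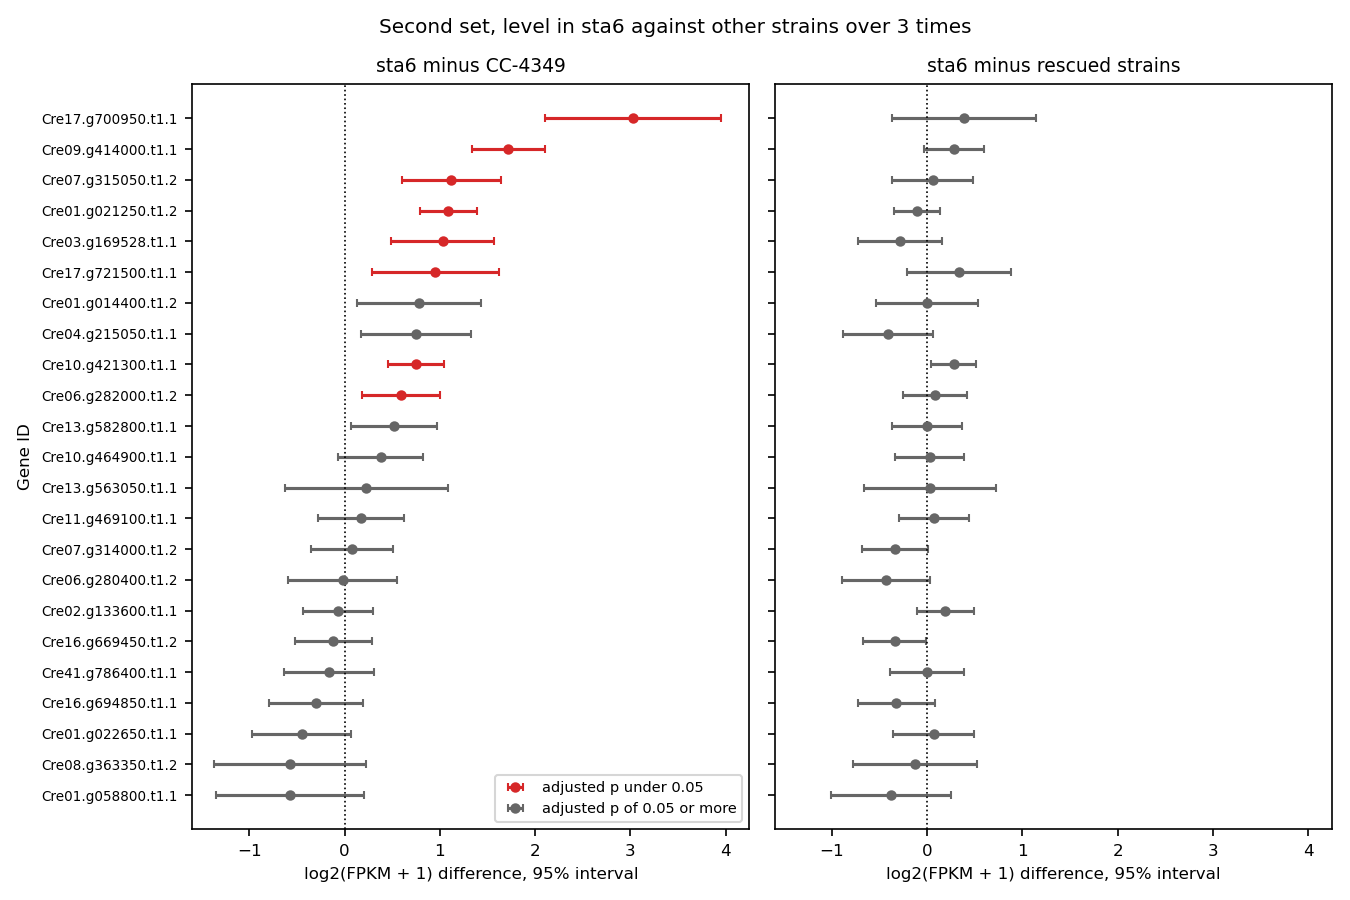
Fitted difference in log2(FPKM + 1) with its 95% interval (horizontal axis) for each of the 23 genes (rows, ordered by the left panel) over the 3 second-set times, for sta6 minus CC-4349 (left) and sta6 minus the 3 strains with STA6 (right). On the left 8 genes pass (red), Cre17.g700950 furthest at 3.03; on the right 0 pass and all estimates lie between -0.43 and 0.38.

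Genome position could be looked at for only part of the 23 genes, as 6 were not matched. A locus tag of the reference assembly Chlamydomonas_reinhardtii_v5.5 was matched for 17 of them, spread over 11 chromosomes, and no 2 were direct neighbours. Of the 28 neighbouring genes with values, 3 also met the 4-fold rise at 2 h in both strains, against 3.38% of all genes. The share was higher among the neighbours, which rests on 3 genes and was not tested. The 3 neighbours were Cre01.g014350 beside Cre01.g014400, Cre13.g563100 beside Cre13.g563050 and Cre17.g701000 beside Cre17.g700950. Cre13.g563100 reached 1019 FPKM in CC-4349 and 516 in sta6 at 2 h, far above its neighbour's 25.3 and 41.3. Whether reads of such neighbours overlap was not tested.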

How the data were processed

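The authors deposited 1 table of FPKM values, taken here as FPKM although the table itself does not say so and the values would look the same as RPKM. The submitters' processing notes name Bowtie. Version, build, counter, strand setting and library depth: not given in the sources used here. Reads shared with close copies or overlapping genes may be split in unknown ways. The 2 columns of each first-set sample were averaged as repeat runs. No source ties samples to separate cultures, so p-values measure only the spread between these samples.

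The members and lists were chosen with earlier results of these data known. Times were compared with limma 3.58.1 (R 4.3.3, trend and robust) on log2(FPKM + 1) with time and strain as factors, and strains with time and class, keeping genes that reached 1 FPKM in 3 or more of the libraries fitted. P-values were adjusted by Benjamini-Hochberg over all genes tested, with a threshold of 0.05. Differences on this scale understate those of low genes. The fits were checked on simulated data. Ratios and levels were computed in Python 3.11.15.

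Named genes were the 10 highest at 2 h, the largest calls of each comparison with one direction in all strains or times, the highest of each peak-time class and those nearest each threshold. With 23 members, the others are named where a count is split. Functional lists, protein patterns and promoter patterns were not applied, because the reference table holds neither names nor sequences for these identifiers, and the STA6 gene was not looked up for the same reason. Alternatives were other pseudocounts, scalings, filters, blocks, runs and left-out libraries.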

Additional observations from a re-analysis of the deposited data

Results flagged for a closer look

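For 6 genes every sample of one strain group moved up and every sample of another moved down between 0.5 and 4 h, pooling both library sets. These differences in the change of log2(FPKM + 1) were not tested. Each is given pooled and then from the second set alone, an alternative chosen after seeing the data, because the pooled sta6 means include the first-set 0.5 h library that stood near 0 h. In sta6 minus the strains with STA6 the difference was 2.08 pooled and 0.49 in the second set for Cre01.g021250, and 2.24 and 0.88 for Cre09.g414000. It was 1.83 and 0.88 for Cre13.g563050, 1.64 and 1.35 for Cre17.g700950, and 1.51 and 0.99 for Cre06.g280400. In sta6 minus CC-4349 it was 2.15 and 0.84 for Cre09.g414000, and 1.29 and 0.88 for Cre06.g280400. The second-set values of this contrast rest on the libraries labelled CC-4349 that matched first-set CC-4349 least. All 7 differences were smaller in the second set alone. The sign of a flagged difference could not change there, because the flag required each second-set sample to move that way as well. In CC-4349 minus the strains with STA6, where these libraries also enter, the difference was 0.39 and 0.47 for Cre17.g721500, 0.52 and 0.23 for Cre01.g021250, and 0.96 and 1.26 for Cre13.g563050.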

How the results depend on the processing

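Of 63 gene-level calls in the second set, all kept their direction under every alternative run. Among the 11 calls from 0.5 to 4 h, 6 genes lost theirs under at least 1 alternative, as did 3 of 21 from 4 to 48 h, 4 of 23 from 0.5 to 48 h and 7 of 8 in sta6 against CC-4349. The number falling from 0.5 to 4 h was 6 without the strain block and 6 to 12 with 1 strain left out. Over all genes 1089 of 14982 fell without the block, and 597 of 14887 to 2473 of 14662 with 1 strain left out. In the 3 strains with STA6 alone the number rising was 2, against 3361 of all 14527 genes tested. From 4 to 48 h, 19 to 23 fell with 1 strain left out, against 3223 of 14887 to 4867 of 14662 over all genes. Against CC-4349, 1 gene was higher without time as a factor and 4 to 11 with 1 time left out. Over all genes 414 of 14982 were higher without time, and 469 of 14662 to 3850 of 14464 with 1 time left out. For 8 and 12 h against 4 h, 16 genes were lower without the sta6 0.5 h library and 15 without both 0.5 h libraries. Of all genes tested there, 1.39% and 1.38% were lower. Both alternatives were chosen after seeing the data. The fitted changes were the same, and the fits have 2 residual degrees of freedom. The rule found 30 genes with FPKM + 0.1, 19 with a level of 20 FPKM, and 16 or 26 in single runs. Rescaling libraries moved the split of calls over all genes (higher and lower) from 1906 and 1457 to 1832 and 2135 at 4 h against 0.5 h with equal medians, from 3560 and 4188 to 4708 and 3666 at 48 h against 4 h with quantile normalization, from 53 and 58 to 83 and 38 in sta6 against the strains with STA6, and from 1669 and 2343 to 2652 and 2092 against CC-4349 (both equal medians). The time comparisons compare samples within strains, through the strain block. Depth is not known, so no counting error could be given, and with 1 sample a strain and time no interaction of strain and time was tested.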
